A study of Homo sapiens with 16 samples.

Results

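The genes described here are the G1 cyclins CCND1, CCND2, CCND3, CCNE1 and CCNE2, their kinases CDK2, CDK4 and CDK6, the retinoblastoma gene RB1 and the transcription factor gene E2F1. They were chosen by symbol and matched to Ensembl identifiers through GENCODE v44. All 10 had a row among the 43836 genes of the count table. Full-transcriptome RNA-seq was available for 16 libraries of KG-1, a human acute myeloid leukemia (AML) cell line of myeloblast-like cells, with 2 biological replicates for each of 8 conditions. All cells had received lentiviral particles and 4 µg/mL puromycin selection. Control cells carried a non-target shRNA, and FOXM1-KD cells (labelled shFOXM1) carried an shRNA against the transcription factor FOXM1. Control cells were given 0.3% DMSO, 50 µM STL427944, 0.75 µM AraC (cytarabine, a nucleoside analogue that blocks DNA synthesis) or 100 nM venetoclax (a BCL2 inhibitor) for 48 h, or 30 µM MK-2206 (an allosteric AKT inhibitor) for 24 h. FOXM1-KD cells were given DMSO, AraC or venetoclax at the same doses for 48 h. The MK-2206 libraries had no DMSO libraries of their own time point, so drug and exposure time cannot be told apart. Whether replicates came from separate transductions was not stated, so p-values rest on the spread between these samples, which the edgeR tests share across genes. The comparisons address which of these genes differ with FOXM1 knockdown, with each compound, and in their drug response between the genotypes.

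D-type cyclins bind CDK4 and CDK6, E-type cyclins bind CDK2, and both kinds of complex phosphorylate the RB1 protein. Unphosphorylated RB1 holds E2F factors, and its phosphorylation releases them, so that genes of S phase entry, CCNE1, CCNE2 and E2F1 among them, are transcribed. In myeloid cells the D-type cyclins are partly interchangeable, and CDK6 is known for a role in hematopoietic progenitors.

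The 16 libraries held 12621145 to 21362546 counts each, except the 2 labelled MK-2206, which held 7351755 and 10330720 (median of all, 18106217.5). Mitochondrial genes took 6.678% and 18.37% of the counts in these libraries and 1.323% to 3.05% in the other 14. FOXM1, the knockdown target, stood at 140 and 138 CPM (counts scaled to the TMM-adjusted library total) in control DMSO libraries and at 48.8 and 81.8 in FOXM1-KD DMSO libraries. Its log2 fold change was -1.08 ± 0.281 (SE, edgeR adjusted p = 0.056). Under AraC the FOXM1 value was -0.56 ± 0.195 (adjusted p = 0.0124), short of 2-fold, and under venetoclax it was -1.2 ± 0.388 (adjusted p = 0.0113). Control and FOXM1-KD libraries also stood apart in genes other than the knockdown target. CD34, a progenitor surface marker, had 12483 to 28951 counts in the 8 control libraries without MK-2206 and 0 to 4 in the 6 FOXM1-KD libraries. MPO, the granule enzyme myeloperoxidase, had 5 to 242 counts in the former and 28881 to 155753 in the latter. The libraries labelled as control cells with MK-2206 went against that label in CD34 (7 and 18 counts) and MPO (3424 and 3888 counts), both on the side of FOXM1-KD. Other myeloid markers were mixed. KIT had 6 to 8 counts there, 313 to 956 in the 8 controls and 1 to 20 in FOXM1-KD libraries. LYZ was on the control side, with 68 to 109 counts against 96 to 818 in controls and 10353 to 45344 in FOXM1-KD. CD33, with 138 to 150 counts in these shallower libraries, was under both (293 to 1142 and 1493 to 1798). In a check for mixed-up samples, on genes that do not depend on the stage of a cell, 8 libraries labelled as control were alike, and the 6 FOXM1-KD libraries and 2 control-labelled libraries differed from them. A difference of culture and the knockdown therefore cannot be told apart in any comparison of the genotypes below. The 2 libraries are called the libraries labelled MK-2206 below, and their values are given against both sets of DMSO libraries. The summed level of 9 myeloid and AML markers was 1319 to 2023 CPM in the 8 controls, 4303 to 13578 in FOXM1-KD and 1105 and 1734 with the MK-2206 label, with 9, 7 and 8 of the markers at a mean of at least 1 CPM. Within that list CD34 and KIT were at 0 to 20 counts in FOXM1-KD libraries. The 3 erythroid, 3 epithelial and 2 fibroblast markers together summed to at most 0.354 CPM per list in control and FOXM1-KD libraries, and the 4 T and B cell markers to at most 13.9. HBB and MS4A1 had 0 counts in all 16 libraries. With the MK-2206 label the epithelial sum reached 2.77 CPM and the fibroblast sum 2.29. The part of these differences in the results below was not tested, and in bulk RNA fewer cells of a kind and less RNA per cell cannot be told apart.

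Levels of different genes were compared per length, as CPM per kb of exon. The length holds all annotated exon bases of a gene, and a single transcript can be much shorter. The canonical transcript has 2026 of 5761 bases for CCND3 and 1865 of 3094 for CDK4, but 11663 of 12239 for CDK6. The order and the sizes of the shares below thus depend on the length used, and canonical lengths were not tried. In control DMSO libraries the order ran from CCND2 (108 CPM per kb) and CDK6 (75.9) through CDK4 (35.8), E2F1 (26.9), RB1 (26.6), CCNE2 (20.9), CCND3 (20.7) and CDK2 (12.4) to CCNE1 (5.45) and CCND1 (0). Neighbours in this order had separate libraries except E2F1 with RB1 and CCNE2 with CCND3, whose values overlapped. CCND2 was thus the main D-type cyclin and CDK6 the main kinase of these control cells by RNA. In FOXM1-KD DMSO libraries CCND2 (85.5), CDK4 (77.5) and CDK6 (61.3) led, and each overlapped its neighbour. The lower end there was CCNE1 (12.9), CCND3 (9.39), CCNE2 (5.68) and CCND1 (1.25), with only CCNE1 and CCND3 overlapping. With AraC, CCNE2 was second in control cells at 88.5 CPM per kb, and in FOXM1-KD cells the libraries of 8 genes overlapped in a chain from CDK4 (61.3) and E2F1 (57.3) through CDK6, CDK2, CCNE2 and RB1 to CCNE1 (28.3) and CCND3 (24.4). The libraries labelled MK-2206 had another order, headed by CCNE1 (50.6) and CCNE2 (37.3), with CCND2 sixth at 16.6 and CCND3 at 3.01.

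**Figure D1:**
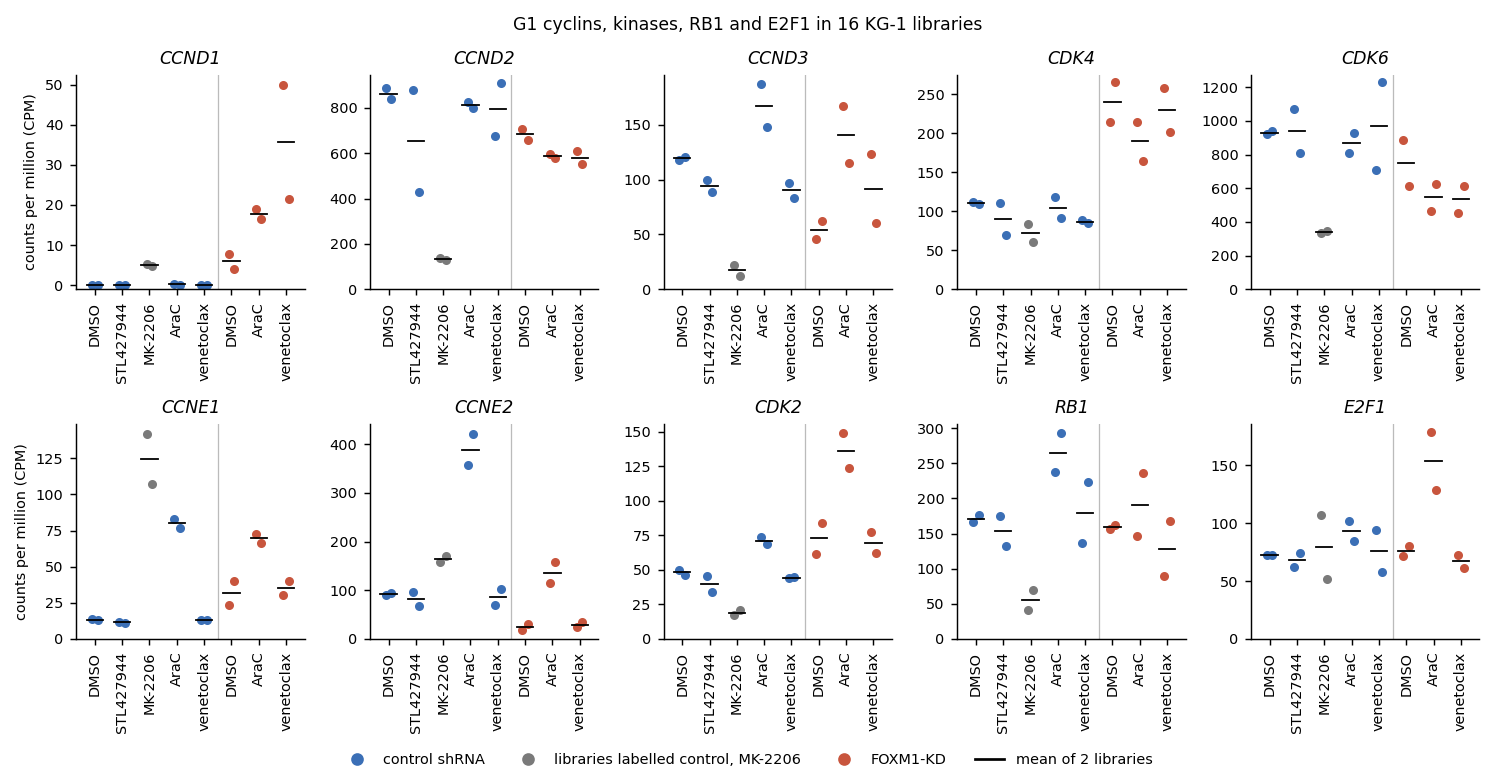
CPM (vertical axes, linear, from 0) of the 10 genes in every library, by treatment, with control cells left and FOXM1-KD cells right of the grey line. Points are single libraries and black lines are means of 2 libraries. CCND1 reached 50.0 CPM in a FOXM1-KD venetoclax library and stayed at or under 0.258 in the 8 control libraries without MK-2206, and CDK4 was at 165 CPM or above in all FOXM1-KD libraries and at or under 118 in all others.

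Apart from CCNE2, the genes lie, on GRCh38, at chr11:69641156-69654474 (CCND1, plus strand), chr12:4269771-4305353 (CCND2, plus), chr6:41934934-42050357 (CCND3, minus), chr19:29811991-29824312 (CCNE1, plus), chr12:55966781-55972789 (CDK2, plus), chr12:57747727-57756013 (CDK4, minus), chr7:92604921-92836573 (CDK6, minus), chr13:48303744-48599436 (RB1, plus) and chr20:33675477-33686385 (E2F1, minus).

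RefSeq promoter windows (GRCh38.p14, 250 bases before to 50 after a transcript start) were at hand for 6 of the 10 genes. They were CCND3, CCNE1, CDK4, CDK6, RB1 and E2F1, and CCND1, CCND2, CCNE2 and CDK2 had no entry. The bases before a RefSeq transcript start, as far as they hold no annotated exon, are shown for 3 genes on which the results turn: E2F1, the factor that RB1 binds, CDK4, the kinase that was higher in FOXM1-KD cells, and CCNE1, whose AraC response differed between genotypes. Capitals mark E2F letters (TTTCCCGC, TTTCGCGC, TTTGCCGC or TTTGGCGC) and the E-box CACGTG, searched on both strands, and neither motif overlaps the other. Sequences run 5′ to 3′ on the gene's strand at chr20:33686386-33686635 (minus), chr12:57752448-57752560 (minus) and chr19:29811741-29811990 (plus).
E2F1: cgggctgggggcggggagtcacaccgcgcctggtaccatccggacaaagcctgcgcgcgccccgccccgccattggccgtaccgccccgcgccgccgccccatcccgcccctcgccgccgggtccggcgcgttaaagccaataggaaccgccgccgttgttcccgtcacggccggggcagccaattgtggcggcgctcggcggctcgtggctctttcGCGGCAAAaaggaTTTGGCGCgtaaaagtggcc
CDK4: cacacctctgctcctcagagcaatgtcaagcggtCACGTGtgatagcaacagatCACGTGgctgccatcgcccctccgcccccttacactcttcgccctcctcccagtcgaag
CCNE1: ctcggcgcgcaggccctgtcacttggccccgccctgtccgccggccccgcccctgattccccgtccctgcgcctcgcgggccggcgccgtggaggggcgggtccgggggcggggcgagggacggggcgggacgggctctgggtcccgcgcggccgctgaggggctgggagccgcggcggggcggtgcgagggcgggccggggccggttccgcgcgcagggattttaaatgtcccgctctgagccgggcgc
The E2F1 stretch held 2 E2F matches, GCGGCAAA (the reverse complement of TTTGCCGC) at position -33 and TTTGGCGC at position -20 from the start, and 3.31% of all 35116 RefSeq windows held at least 1. The CDK4 stretch lies before the start of its RefSeq transcript but inside the longer span that GENCODE gives the gene. It held CACGTG 2 times, and its window, which runs on into an annotated exon, held it 3 times. An E-box of these letters was in 7.26% of windows. One window of CDK6 held CACGTG 31 bases after its start, and the windows of CCND3, CCNE1 and RB1 held neither motif, but the RB1 window lies at a start inside the gene, so the bases before the RB1 gene start were not searched. A match is a match of letters and was not tied to binding here.

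FOXM1-KD cells had CCND1, CCNE1 and CDK4 higher and CCNE2 and CCND3 lower than control cells under DMSO, whereas E2F1 and RB1 were not called. CCND1, the D-type cyclin most often tied to growth signals, had 0 and 0 counts in control DMSO libraries and 149 and 76 (7.88 and 4.01 CPM) in FOXM1-KD DMSO libraries. With a floor of 3 counts per library it was at least 36.1-fold higher (adjusted p = 0.0127). Under AraC it had 5 and 4 counts in control and 324 and 314 in FOXM1-KD libraries, a ratio of mean CPM of 79.4. Under venetoclax the counts were 0 and 1 against 732 and 359, at least 211-fold higher. All 6 FOXM1-KD libraries were above all control libraries of the same treatment.

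CCNE2, an E-type cyclin, stood at 89.9 and 93.7 CPM in control and 19.1 and 30.8 in FOXM1-KD libraries under DMSO. It fell by 1.87 ± 0.268 on the log2 scale (adjusted p = 0.0123), by 1.55 ± 0.183 under AraC (adjusted p = 2.79e-16) and by 1.55 ± 0.406 under venetoclax (adjusted p = 0.00107). The other E-type cyclin, CCNE1, moved the opposite way. Its CPM were 13.5 and 13.4 in control and 23.7 and 39.9 in FOXM1-KD libraries under DMSO (log2 fold change 1.26 ± 0.299, adjusted p = 0.0448). Under venetoclax it was 13.4 and 13.1 against 30.1 and 40.0 CPM (log2 fold change 1.40 ± 0.434, adjusted p = 0.00758). Under AraC the genotypes were close, with 82.9 and 77.0 CPM against 72.9 and 66.2 and a log2 fold change of -0.24 ± 0.212 (adjusted p = 0.421).

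CDK4, a catalytic partner of D-type cyclins, was at 112 and 109 CPM in control and 215 and 265 in FOXM1-KD libraries under DMSO. It rose by 1.13 ± 0.147 (adjusted p = 0.0098) under DMSO and by 1.41 ± 0.376 (adjusted p = 0.00135) under venetoclax. Under AraC the log2 fold change was 0.82 ± 0.195 with an adjusted p of 0.000116, short of the 2-fold size. CDK6, the other D-cyclin kinase, was lower in FOXM1-KD libraries without reaching a 2-fold difference. Its log2 fold changes were -0.30 ± 0.194 under DMSO (adjusted p = 0.332), -0.71 ± 0.156 under AraC (adjusted p = 2.79e-05) and -0.86 ± 0.334 under venetoclax (adjusted p = 0.0458). CDK2, the kinase of E-type cyclins, was on the higher side, by 0.61 ± 0.194, 0.90 ± 0.205 and 0.65 ± 0.399 in the same order, and no value reached 2-fold.

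CCND3 was at 118 and 121 CPM in control and 46.0 and 62.2 in FOXM1-KD libraries under DMSO and fell by 1.13 ± 0.184 (adjusted p = 0.0171). Its difference was -0.29 ± 0.192 under AraC and 0.02 ± 0.382 under venetoclax, where the 2 FOXM1-KD libraries (123 and 60.2 CPM) lay on both sides of the controls (97.1 and 83.2). CCND2 was lower without reaching 2-fold. Its values were -0.33 ± 0.0965 under DMSO (adjusted p = 0.0755), -0.51 ± 0.156 under AraC (adjusted p = 0.00375) and -0.45 ± 0.335 under venetoclax (adjusted p = 0.424). RB1 and E2F1 were called under none of the treatments. RB1 was at -0.09 ± 0.0978 under DMSO (adjusted p = 0.484) and -0.48 ± 0.37 under venetoclax (adjusted p = 0.45). Under AraC it was at -0.51 ± 0.183 (adjusted p = 0.0158), short of 2-fold. E2F1 was at 72.3 and 72.6 CPM in control and 71.6 and 80.3 in FOXM1-KD libraries under DMSO. Under AraC it was at 102 and 84.7 against 179 and 129, a log2 fold change of 0.68 ± 0.199 (adjusted p = 0.00209).

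A gene was called at a change of at least 2-fold and an edgeR adjusted p below 0.1. By this rule 5 of the 10 genes were called under DMSO, 2 under AraC and 4 under venetoclax, where 29.6%, 33.7% and 30.4% of all protein-coding genes tested were called. With single libraries left out the counts ran from 2 to 4 under DMSO and from 2 to 5 under venetoclax, too near these shares to be a result about the group. The median log2 fold change of the 10 genes was -0.00, -0.27 and -0.08, beside -0.01, 0.03 and 0.11 for all protein-coding genes tested. DESeq2 called 5, 2 and 4. When each library was left out in turn, CCND1 and CCNE2 were called 4 of 4 times under DMSO, CDK4 2 times and CCND3 and CCNE1 1 time each. Without control DMSO replicate 1 or replicate 2 the count was 3 or 2, without FOXM1-KD DMSO replicate 2 it was 3, and under venetoclax without FOXM1-KD replicate 1 it was 2 (CCND1 and CCNE1).

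**Figure D2:**
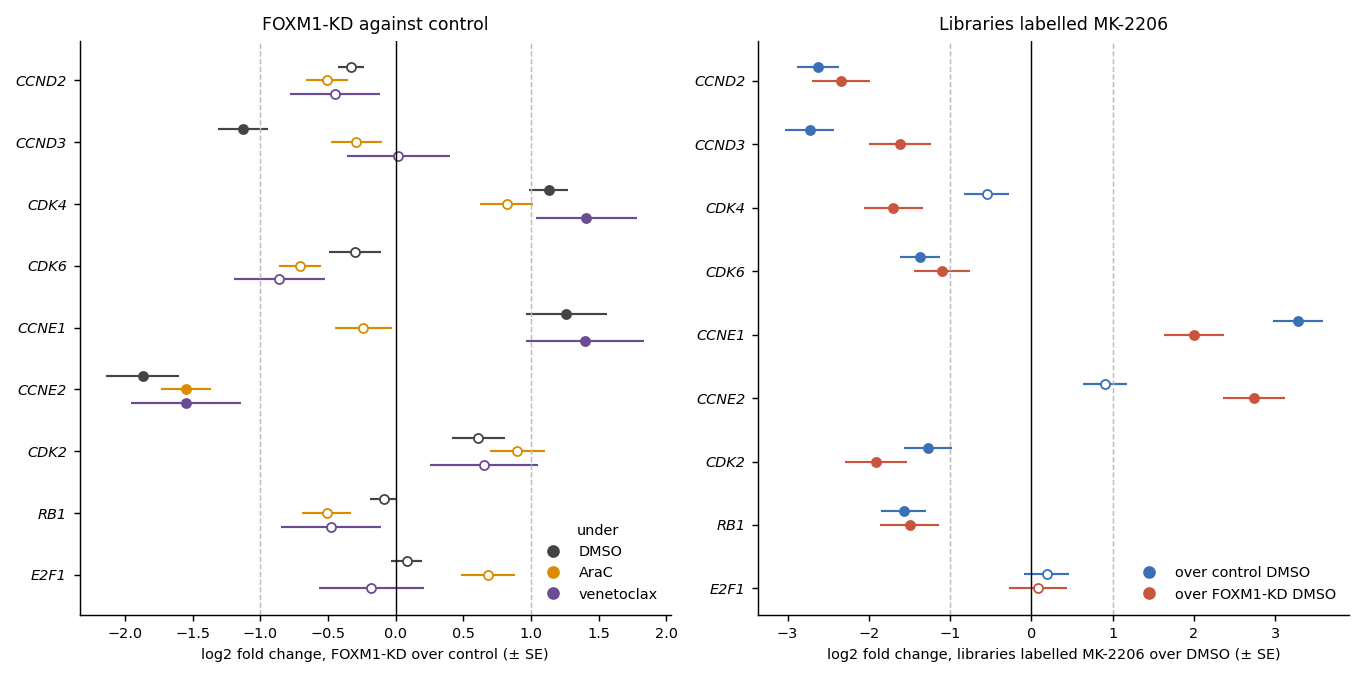
Log2 fold changes (horizontal axes) with standard errors for 9 genes, in FOXM1-KD over control libraries under 3 treatments (left) and in the libraries labelled MK-2206 over either set of DMSO libraries (right). Filled points were called, open points were not, and dashed lines mark a 2-fold change. CCNE2 was called lower under all 3 treatments on the left (-1.87, -1.55 and -1.55). CCND1 is left out because control DMSO libraries had 0 counts.

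Shares within a library do not depend on how libraries are scaled, so 5 shares of length-scaled counts were compared between genotypes over the 12 libraries under DMSO, AraC and venetoclax. CCNE2 made up 70.7% to 81.3% of CCNE1 plus CCNE2 in the 6 control libraries and 30.2% to 57.2% in the 6 FOXM1-KD libraries. Its mean share was 38.2% in FOXM1-KD and 76.7% in control libraries, a difference of -38.5 percentage points. CDK6 made up 63.4% to 78.5% of CDK4 plus CDK6 in control and 30.7% to 51.0% in FOXM1-KD libraries, with means of 41.1% and 69.4% and a difference of -28.3 points. CCND1 took 0% to 0.0399% of the D-type cyclin counts in control and 0.894% to 9.70% in FOXM1-KD libraries, 4.15 points higher on average. For these 3 shares the libraries of the genotypes did not overlap within any treatment, and the two-sided exact permutation test within treatments gave p = 0.00926 (adjusted over the 5 shares, 0.0154), the smallest value this test allows. The shuffling did not use the replicate numbers, although AraC and venetoclax libraries of the same number were taken to be paired. Keeping such pairs together would allow fewer arrangements and a larger smallest value. The shares of CCND2 (-3.34 points, exact permutation p = 0.315) and CCND3 (-0.815 points, exact permutation p = 0.713) did not pass the test. The CCND2 share was higher in FOXM1-KD libraries under DMSO (88.9% against 83.9%) and lower under AraC (72.5% against 77.8%) and venetoclax (76.4% against 86.1%). CCND2 made up most of the D-type cyclin counts in both genotypes, at a mean of 79.3% in FOXM1-KD and 82.6% in control libraries. In the libraries labelled MK-2206, CCND1 made up 5.01% and 5.19%, CDK6 50.4% and 59.0%, and CCNE2 38.4% and 47.0%. Both CCNE2 shares and the first CDK6 share lay within the range of FOXM1-KD libraries, and the second CDK6 share lay between the genotypes.

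**Figure D3:**
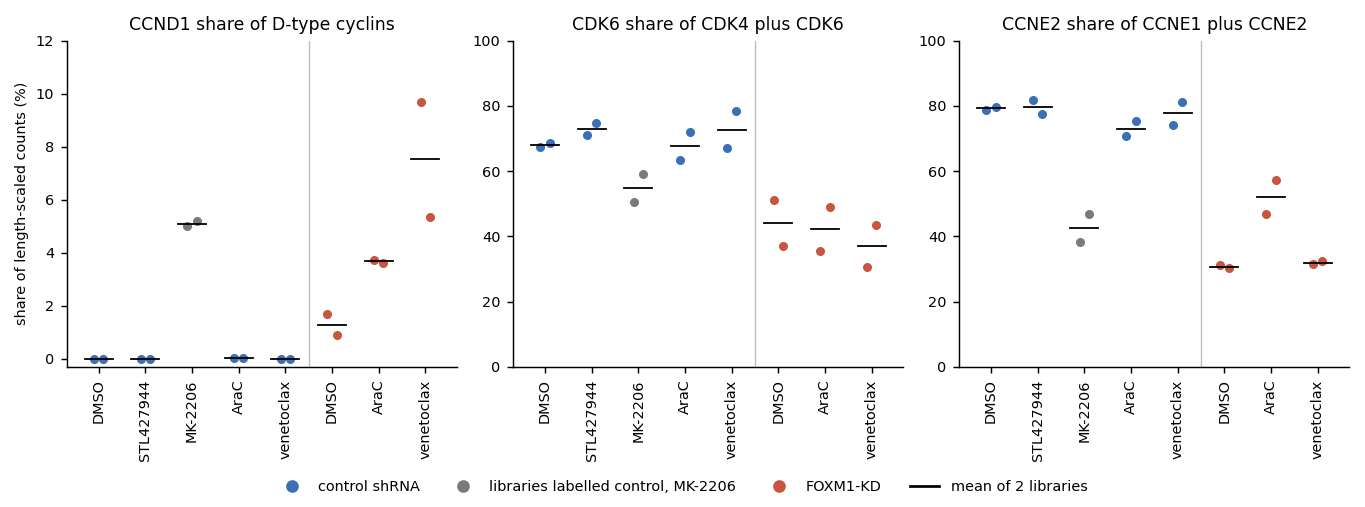
Shares in percent of length-scaled counts (vertical axes) of CCND1 among D-type cyclins, of CDK6 in CDK4 plus CDK6, and of CCNE2 in CCNE1 plus CCNE2, by library and treatment. Points are single libraries and lines are means of 2. CCNE2 lay at 70.7% or above in all control libraries without MK-2206 and at 57.2% or below in all FOXM1-KD libraries.

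AraC raised both E-type cyclins in control cells and both E-type cyclins, CCND3 and CCND1 in FOXM1-KD cells. In control libraries CCNE1 went from 13.5 and 13.4 CPM under DMSO to 82.9 and 77.0 under AraC, a log2 fold change of 2.56 ± 0.154 (edgeR adjusted p = 2.02e-08). CCNE2 went from 89.9 and 93.7 to 357 and 421 CPM (log2 fold change 2.07 ± 0.127, adjusted p = 2.55e-08). In FOXM1-KD libraries CCNE1 went from 23.7 and 39.9 to 72.9 and 66.2 CPM, which is 1.05 ± 0.283 on the log2 scale (adjusted p = 0.003). CCNE2 went from 19.1 and 30.8 to 115 and 158 CPM, a rise of 2.38 ± 0.286 (adjusted p = 2.19e-14). The groups did not overlap for either cyclin in either genotype. The interaction term, FOXM1-KD minus control, was -1.42 ± 0.305 for the CCNE1 response (adjusted p = 0.000263). That of CCNE2 differed by 0.40 ± 0.262 (adjusted p = 0.617).

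CCND3 was at 118 and 121 CPM under DMSO and 187 and 148 under AraC in control libraries, which is 0.47 ± 0.134 on the log2 scale (adjusted p = 0.0258), under 2-fold. In FOXM1-KD libraries it rose from 46.0 and 62.2 to 167 and 115 CPM, by 1.30 ± 0.272 (adjusted p = 4.82e-05), and the responses differed by 0.92 ± 0.269 (adjusted p = 0.0174), also under 2-fold. CCND1 rose in FOXM1-KD cells by 1.51 ± 0.341 (adjusted p = 0.000214). In control cells its 5 and 4 counts under AraC against 0 and 0 gave a ratio of at least 1.36 and an adjusted p of 0.11. RB1 was higher by 0.61 ± 0.128 (adjusted p = 0.00379) in control cells, from 166 and 176 to 237 and 293 CPM, and by 0.19 ± 0.259 (adjusted p = 0.677) in FOXM1-KD cells. CDK2 was higher by 0.54 ± 0.139 (adjusted p = 0.0142) and 0.83 ± 0.268 (adjusted p = 0.0209), and E2F1 by 0.35 ± 0.138 (adjusted p = 0.113) and 0.94 ± 0.268 (adjusted p = 0.00564), all under 2-fold. CCND2, CDK4 and CDK6 had log2 fold changes of -0.10, -0.10 and -0.12 in control and -0.29, -0.42 and -0.53 in FOXM1-KD cells, none with an adjusted p below 0.1.

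With AraC 2 of the 10 genes were called in control cells and 4 in FOXM1-KD cells, where 8.16% and 14.3% of protein-coding genes were called, and the interaction called 1, where 7.18% were called. The median log2 fold change of the group was 0.51 (0.46 with CCND1 at its bound) and 0.89, beside 0.03 and 0.06 for all protein-coding genes tested. DESeq2 called 2, 4 and 1. Without either AraC library of the genotype the count was 0 in both genotypes, where a lone library was taken to vary like the other group, while the log2 fold change of CCNE1 was then 2.51 or 2.64 in control and 0.99 or 1.11 in FOXM1-KD cells. In FOXM1-KD cells CCNE1 was also lost without FOXM1-KD DMSO replicate 1 (0.71), and 6 genes were called without replicate 2. The interaction of CCNE1 was called in 6 of 8 such fits, from -1.75 to -1.13, and lost without control AraC replicate 1 or replicate 2.

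**Figure D4:**
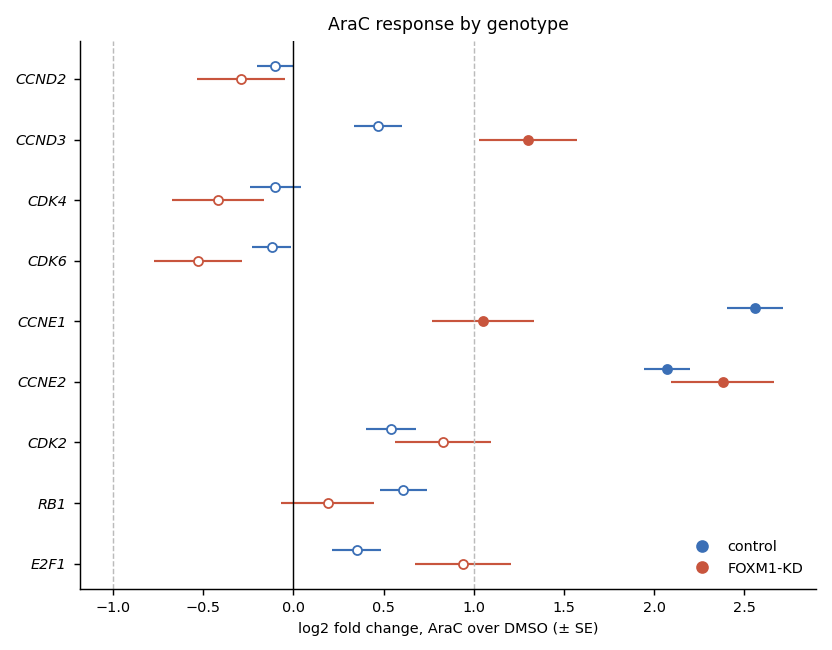
Log2 fold changes with standard errors (horizontal axis) of AraC over DMSO for 9 genes in control (blue) and FOXM1-KD cells (red). Filled points were called, open points were not, and dashed lines mark a 2-fold change. The CCNE1 response was 2.56 in control and 1.05 in FOXM1-KD cells, and that of CCNE2 2.07 and 2.38.

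Venetoclax called none of the 10 genes in control cells and CCND1 alone in FOXM1-KD cells. In control libraries 0 genes were called by edgeR (0% of protein-coding genes), 0 of the 10 had an unadjusted p below 0.05, and DESeq2 called 0. The log2 fold changes of the 9 genes other than CCND1 ran from -0.39 ± 0.211 (CCND3) to 0.08 ± 0.278 (E2F1), and RB1 was at 0.08 as well. CCND1 had 0 and 1 counts there. In FOXM1-KD libraries CCND1 went from 7.88 and 4.01 CPM under DMSO to 50.0 and 21.4 under venetoclax, a log2 fold change of 2.60 ± 0.370 (edgeR adjusted p = 1.25e-09), and 2.84% of protein-coding genes were called. CCND3 followed with 0.77 ± 0.320 (adjusted p = 0.41), and its FOXM1-KD venetoclax libraries (123 and 60.2 CPM) overlapped the DMSO libraries (46.0 and 62.2). Without either FOXM1-KD venetoclax library CCND1 was not called, at log2 fold changes of 1.86 and 3.08. The difference between genotypes was called by edgeR for 0 of the 10 genes, where 1.1% of protein-coding genes were called. DESeq2 called 0 as well, and 1 gene, CCND3 (1.17 ± 0.408, adjusted p = 0.307), had an unadjusted p below 0.05. The median log2 fold changes of the group in control cells, in FOXM1-KD cells and for the difference were -0.05, -0.05 and 0.11, beside 0, 0.08 and 0.08 for protein-coding genes. In control cells the median was -0.09 without CCND1.

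STL427944 called 0 of the 10 genes by edgeR, as it called 0% of protein-coding genes. None had an unadjusted p below 0.05, and DESeq2 called 0. The replicates differed much here: CCND2 was at 878 and 427 CPM against 887 and 838 under DMSO (-0.40 ± 0.330), and CDK4 at 110 and 69.4 against 112 and 109 (-0.30 ± 0.252). The other values ran from -0.33 ± 0.194 (CCND3) to 0.02 ± 0.222 (CDK6), apart from CCND1 with 1 and 0 counts. The group's median was -0.18 (-0.21 without CCND1), beside -0.04 for protein-coding genes. The standard errors, 0.194 to 0.33 on the log2 scale over these 9 genes, set the size of a difference that 2 libraries a group could show. STL427944, MK-2206, AraC, venetoclax and the FOXM1-KD comparison under DMSO share the same 2 control DMSO libraries.

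In the libraries labelled MK-2206, the E-type cyclin CCNE1 was called higher against either set of DMSO libraries. The D-type cyclins CCND2 and CCND3, the kinases CDK2 and CDK6, and RB1 were called lower against both. CCNE1 was at 142 and 107 CPM, against 13.5 and 13.4 in control and 23.7 and 39.9 in FOXM1-KD DMSO libraries. Its log2 fold change was 3.28 ± 0.304 (edgeR adjusted p = 7.99e-26) and 2.00 ± 0.368 (adjusted p = 6.41e-07), respectively. CCNE2, at 158 and 170 CPM, was 0.91 ± 0.269 over control DMSO (adjusted p = 0.00222), under 2-fold, and rose by 2.74 ± 0.376 (adjusted p = 8.03e-12) over FOXM1-KD DMSO. CCND2, at 137 and 128 CPM, was -2.63 ± 0.258 against the control libraries (887 and 838 CPM) and -2.34 ± 0.358 against the FOXM1-KD libraries (707 and 659 CPM). CCND3, at 22.3 and 12.4 CPM, was -2.73 ± 0.301 and -1.62 ± 0.383. These D-type cyclins had no library in common range with either reference. The kinase genes fell as well, CDK6, at 337 and 347 CPM, with -1.37 ± 0.242 and -1.1 ± 0.341, and CDK2 with -1.27 ± 0.298 and -1.91 ± 0.379. RB1, at 40.7 and 69.1 CPM, was -1.57 ± 0.276 and -1.5 ± 0.36. The adjusted p of these falls was at most 0.00512.

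The reference decided the call for CCND1, CDK4 and CCNE2, the last of which is given above. CCND1 had 37 and 41 counts, at least 30.4-fold higher than in control DMSO libraries (adjusted p = 4.95e-20), and was -0.21 ± 0.489 against FOXM1-KD DMSO libraries (adjusted p = 0.723). CDK4, at 83.7 and 61.1 CPM, was -0.55 ± 0.274 against control (adjusted p = 0.0904) and -1.7 ± 0.36 against FOXM1-KD libraries (adjusted p = 1.78e-05). E2F1 overlapped both references, with 107 and 51.4 CPM and log2 fold changes of 0.19 ± 0.276 and 0.08 ± 0.355. Of the 10 genes 7 were called against control DMSO, where 54.6% of protein-coding genes were called, and 8 against FOXM1-KD DMSO, where 46.8% were. The median log2 fold change of the group was -0.91 and -1.30, beside 0.43 and 0.45 for all protein-coding genes tested and -0.29 and -0.28 for those with at least 10 counts on average. DESeq2 called 8 against control, and the 7 genes were called in 4 of 4 fits that left out 1 library. Scaling by library totals alone moved the group's values by -0.22 in the median, and left 7 called.

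The regulators around these genes were described with 6 lists: inhibitors of the kinases, other pocket proteins and E2F factors, kinase and phosphatase regulators, turnover of cyclins and inhibitors, later cyclins, and E2F target genes of S phase entry. Their counts stand beside 29.6%, 33.7% and 30.4% of protein-coding genes called in FOXM1-KD cells under DMSO, AraC and venetoclax, 8.16% and 14.3% with AraC in control and FOXM1-KD cells, and 54.6% with the MK-2206 label. Fold changes and counts of called genes with the MK-2206 label are against control DMSO libraries throughout the lists. A difference of culture and the drug cannot be told apart in them. Among the 7 CIP/KIP and INK4 inhibitors, CDKN1A, which binds CDK2 complexes, rose with AraC by 3.37 ± 0.257 in control cells (edgeR adjusted p = 3.51e-07) and 5.26 ± 0.378 in FOXM1-KD cells (adjusted p = 1.3e-39). Its CPM went from 0.987 and 0.879 to 9.41 and 10.2 in the former and from 2.06 and 0.633 to 65.8 and 43.6 in the latter. The interaction was 1.98 ± 0.469 (adjusted p = 0.0014). CDKN1A reached 873 and 755 CPM in the libraries labelled MK-2206, a log2 fold change of 9.82 ± 0.375 over control DMSO (adjusted p = 2.29e-147). CDKN2A, which encodes an inhibitor of CDK4 and CDK6, had 0 to 7 counts in the 8 control libraries without MK-2206, 295 to 431 in FOXM1-KD libraries and 372 and 320 with the MK-2206 label. Of the 7 inhibitors, 2 were called higher and 2 lower in FOXM1-KD cells under DMSO, 3 and 2 under AraC, and 2 and 1 under venetoclax. AraC called 2 of 6 higher in control and 2 of 7 in FOXM1-KD cells, and the MK-2206 label 4 higher and 1 lower.

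Among 11 other pocket proteins, E2F and DP factors, E2F5 fell in FOXM1-KD cells under all 3 treatments, with -2.52 ± 0.285 (adjusted p = 0.00699) under DMSO, -3.59 ± 0.274 (adjusted p = 1.13e-37) under AraC and -3.24 ± 0.465 (adjusted p = 5.91e-11) under venetoclax. AraC raised 3 of the 11 in each genotype and lowered 1, E2F5, in FOXM1-KD cells, with E2F7, an inhibitory E2F, up by 1.68 ± 0.147 (adjusted p = 1.46e-06) and 1.78 ± 0.283 (adjusted p = 1.98e-08), and E2F2 up by 1.30 ± 0.138 (adjusted p = 1.06e-05) and 1.81 ± 0.268 (adjusted p = 1.2e-09). In FOXM1-KD cells the list had 0 higher and 1 lower under DMSO, 1 and 1 under AraC, and 1 and 2 under venetoclax. With the MK-2206 label 1 rose and 6 fell. E2F5 was among these 6, but its 13 and 6.93 CPM overlapped the FOXM1-KD DMSO libraries (10.1 and 5.91). FBXW7, which marks cyclin E for degradation, was the 1 turnover gene of 8 called in FOXM1-KD cells, higher by 1.69 ± 0.107 (adjusted p = 0.00233), 1.32 ± 0.226 (adjusted p = 3.55e-08) and 1.58 ± 0.407 (adjusted p = 0.000807) under DMSO, AraC and venetoclax. With the MK-2206 label FBXW7 rose by 2.78 ± 0.289 (adjusted p = 1.1e-20) over control DMSO. In the same comparison 4 of the 8 fell, SKP2, which targets CDK inhibitors, with -3.02 ± 0.313 (adjusted p = 7.63e-21). FBXW7 was at 189 and 162 CPM in the libraries labelled MK-2206 and at 83.6 and 88 in FOXM1-KD DMSO libraries. SKP2 was at 10.3 and 11.8 CPM in the former and 85.2 and 118 in the latter.

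The list of 20 E2F target genes holds CCNE1, CCNE2 and E2F1 themselves. AraC called 4 of the 20 higher in control and 6 in FOXM1-KD cells, with none lower. In FOXM1-KD against control cells 2 were higher and 3 lower under DMSO, 1 and 3 under AraC, and 4 and 3 under venetoclax, with MCM7 higher (1.02 ± 0.173, adjusted p = 0.0188, under DMSO). With the MK-2206 label 13 fell, MCM4 with -4.61 ± 0.269 (adjusted p = 1.08e-63), and CCNE1 was the 1 that rose, where 54.6% of protein-coding genes were called. The 5 of 20 called in FOXM1-KD cells under DMSO lay too near the background of 29.6% to be a result about the list. The counts under AraC and venetoclax stand beside 33.7% and 30.4%. In the list of 5 genes for later cyclins and CDK1, 4 fell with the MK-2206 label, CDK1 with -3.24 ± 0.301 against control DMSO (adjusted p = 1.19e-25). In FOXM1-KD cells CCNB1 was called lower under DMSO (-1.22 ± 0.315, adjusted p = 0.0549), with 1 gene of the list higher under each treatment. AraC called 1 of the 5 in FOXM1-KD cells, CCNA1 (2.13 ± 0.322, adjusted p = 2.85e-09). Of the 8 kinase and phosphatase regulators, 1 was called in FOXM1-KD cells under AraC, PKMYT1 (1.13 ± 0.203, adjusted p = 1.31e-07), and the MK-2206 label had 2 higher and 1 lower. Of the 59 genes in the 6 lists, edgeR called 0 with STL427944 and 0 with venetoclax in control or FOXM1-KD cells, where 1, 1 and 2 had an unadjusted p below 0.05.

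The pattern over the 8 condition means was also compared with that of 12583 protein-coding genes, as a description with no test. Among the closest genes by Pearson correlation of log2(CPM + 0.5) were SKA2 (r = 0.997) for CCND2, WDR53 (0.997) for CDK2, and HADHA (0.996) and GRSF1 (0.991) for CDK4. CDK6 was closest to ZNF546 (0.995) and ZFAND1 (0.995), CCND1 to SVEP1 (0.994) and NOMO2 (0.994), and CCND3 to FRMD8 (0.992) and MDM1 (0.990). RB1 was closest to AK4 (0.992) and ILDR2 (0.991), E2F1 to OXER1 (0.992) and CYTIP (0.986), CCNE2 to LPAR1 (0.991) and PEAR1 (0.987), and CCNE1 to UBE2A (0.976) and GNG4 (0.969). Within the group the highest values were those of CCND3 with RB1 (0.93) and CCND2 with RB1 (0.92). CCNE1 reached at most 0.54, with CCND1, and CCNE2 at most 0.45, with E2F1. The lowest value was that of CCNE1 with CDK6 (-0.77). These are 8 points, 1 of them from the libraries labelled MK-2206.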

How the data were processed

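RNA-seq libraries of KG-1 cells were analysed from the table of raw read counts that the authors deposited. According to the study's methods, libraries were made in one batch with a stranded kit after ribosomal RNA depletion, while the labels name another kit, and the submitters' processing notes name STAR, featureCounts and the hg38 build, with no versions, for alignment and counting per Ensembl gene. The study's methods give the linkers unique molecular identifiers, but whether the counting collapsed them, and its strand setting, were not given in the sources used here, so each count was read as 1 read, and bounds at the floor reflect counting error alone. Genes were named through GENCODE v44 (43177 of 43836 identifiers matched). Every library was compared with its replicate and differed by more than sampling noise (chi-square per degree of freedom 8.577 to 103.3).

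Testing used edgeR 4.0.16 in R 4.3.3 (TMM scaling, then glmQLFit and glmQLFTest) over all genes with at least 1 count, on the 4 libraries of a comparison or the 8 of an interaction, with Benjamini-Hochberg adjustment over all genes tested and a prior count of 0.125. A call needed at least a 2-fold change and an adjusted p below 0.1. Background percentages are over protein-coding genes. CPM use the TMM-scaled total, and lengths are exon bases of GENCODE v44. SE is the log2 fold change over the square root of F. Folds against a group with at most 3 counts in each library are lower bounds at that floor. DESeq2 1.42.0, filterByExpr, other scalings, a fit of all 16 libraries and leaving out each library were alternatives, and all were recomputed for each member. The fits were tested on simulated counts.

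The labels number the replicates of MK-2206, AraC and venetoclax but not of DMSO or STL427944. In 10 pairs of same-numbered libraries the deviations from the group means correlated at 0.375 to 0.606 over 14888 genes, so the numbers were taken to pair libraries, and a replicate block was fitted where both groups were numbered.

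The genes and lists were chosen with earlier results of these data known. The named genes were all members, FOXM1, the 2 genes closest to each member, and at most the 2 called genes of each list that rose or fell most, given 10 or more counts in each library of the comparison. A few genes that this rule names are not reported here. CDKN2A, whose control counts were lower than that, was named after its values were seen, as were CD34, MPO, KIT, LYZ and CD33 among the markers. The reference of FOXM1-KD DMSO libraries for MK-2206 was added after the data were seen.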

Additional observations from a re-analysis of the deposited data

Results flagged for a closer look

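By an adjusted p below 0.1 alone, the AraC response differed between genotypes for 2 of the 10 genes. The test was that of the difference itself, the interaction term of edgeR over 8 libraries. Only 1 of them, CCNE1, was also called at 2-fold, where 7.18% of protein-coding genes were called. The response of CCNE1 in FOXM1-KD minus control cells was -1.42 on the log2 scale, and all 4 AraC libraries were above the DMSO libraries of their genotype. The response of CCND3 was larger in FOXM1-KD cells by 0.92, which is under 2-fold, with all 4 AraC libraries above their DMSO libraries as well. With single libraries left out, the difference ran from -1.75 to -1.13 for CCNE1 and from 0.62 to 1.17 for CCND3.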

How the results depend on the processing

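Scaling, filter, DESeq2, a fit of all 16 libraries and an adjusted p below 0.05 kept every count of called genes within 1.5 times its value. The test across all 8 groups gave 1 called gene for STL427944 and 1 for venetoclax in control cells, both CCND1 with at most 1 count in any library. With no fold threshold 5 genes were called for AraC in control cells, 8 for FOXM1-KD under AraC and 2 for the AraC interaction. The share of all genes at that setting was not taken, so these counts are not a result about the group. At an unadjusted edgeR p below 0.05, 7, 8 and 4 of the 10 genes passed in the same order. Beside them were 5141 of 15090, 8764 of 16030 and 2976 of 16388 protein-coding genes. Leaving out single libraries, the counts ran from 0 to 2 for AraC in control cells, 2 to 4 for FOXM1-KD under DMSO, 2 to 5 under venetoclax, 0 to 6 for AraC in FOXM1-KD cells, 0 to 1 for venetoclax in FOXM1-KD cells and 0 to 2 for the AraC interaction. The value of CCND3 share of D-type cyclins, FOXM1-KD minus control, ran from -2.03 to 0.397 points and changed sign without control venetoclax replicate 1 (0.0662), FOXM1-KD AraC replicate 2 (0.203) or FOXM1-KD venetoclax replicate 2 (0.397). CCND1 in the libraries labelled MK-2206 was -0.21 with FOXM1-KD DMSO libraries as the reference, and CCND2 with STL427944 ran from -0.98 without STL427944 replicate 1 to 0.02 without replicate 2. The replicate block left the counts at 2 under AraC and 4 under venetoclax and changed no other call. Of the values of single genes 890 kept their call, 31 gained it, 28 lost it and 2 changed sign. This tally leaves out uncalled values smaller than their own SE and CCND1 values near the floor. Values left out did change sign with single libraries removed. E2F1 with the MK-2206 label ran from -0.45 to 0.6, and CCND3 in FOXM1-KD under venetoclax from -0.58 to 0.45. Of the counts and shares 195 stayed, 19 moved and 3 changed sign.

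With 2 libraries a group, a gene's own spread had 2 degrees of freedom, and the tests drew on the other genes as well. In some comparisons, such as FOXM1-KD under AraC, p-values were as small as if the spread were known from the other genes alone. In FOXM1-KD under DMSO they were not, so p-values of different comparisons should not be set against each other. The cause of the changed counts was not tested. The libraries labelled MK-2206 had the lowest totals. CCND1 was at the floor in control cells, so its size there is a bound.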
